A study of Mus musculus with 6 samples.

Results

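The PP2C phosphatases examined here were 9 genes chosen by name, *Ppm1k*, *Ppm1a*, *Ppm1b*, *Ppm1d*, *Ppm1f*, *Ppm1g*, *Ppm1h*, *Ppm1l* and *Ppm1m*, of 54232 genes in the count files. Their transcripts were measured by RNA sequencing of the heart ventricle in 3 WD + Tributyrin mice and 3 WD + Vehicle mice, and all 9 passed the filter on low counts. Every mouse was wild-type C57BL/6J and had been fed the western diet (WD), a diet rich in fat and sucrose, for 15 weeks. The mice were then needle-fed Tributyrin, a triglyceride that releases butyrate, at 5 g/kg body weight, or vehicle (PBS in the sample labels), 2 days on and 2 days off, for 3 weeks. There was no group on normal chow among these libraries, so the difference is that between treatments on WD alone. The study had singled out *Ppm1k* on these same mice, so its own difference is a starting point here and not independent evidence. The question was whether the difference was particular to *Ppm1k* within the family.

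PP2C phosphatases are serine/threonine phosphatases that need magnesium or manganese and work as single chains, without the regulatory subunits of the PP1 and PP2A enzymes. *Ppm1k* encodes PP2Cm, which sits in the mitochondrial matrix and removes the inhibitory phosphate from branched-chain alpha-keto acid dehydrogenase (BCKDH), the enzyme complex that commits branched chain amino acids (BCAAs) to oxidation. The other 8 genes encode enzymes of the cytosol, nucleus or endoplasmic reticulum that act on stress kinases, Smad proteins, p53, Rab proteins and splicing factors.

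*Ppm1k* (ENSMUSG00000037826) spans chr6:57506502-57535468 in GRCm38, minus strand, and *Ppm1a* (ENSMUSG00000021096) spans chr12:72757455-72799819, plus strand. Both code for protein. The 250 bases before their RefSeq starts (GRCm38.p6, 5′ to 3′ on the strand of the gene) are shown because the first is the gene whose groups stood apart and the second is the family member whose level followed it most closely across libraries. The window of *Ppm1k* is chr6:57535488-57535737 and that of *Ppm1a* is chr12:72760961-72761210. The *Ppm1k* window lies outside the annotated span of *Ppm1k* but inside that of *Gm45193*, a gene on the opposite strand. The *Ppm1a* window lies inside the annotated span of *Ppm1a*, which begins further upstream. Capitals mark matches on either strand to any of 3 motifs, which are the GC box GGGCGG, then the CCAAT box, and also the TATA-like TATAAA. The last 2 GC boxes of *Ppm1a* share 1 base, and matches to different motifs do not overlap.
Ppm1k: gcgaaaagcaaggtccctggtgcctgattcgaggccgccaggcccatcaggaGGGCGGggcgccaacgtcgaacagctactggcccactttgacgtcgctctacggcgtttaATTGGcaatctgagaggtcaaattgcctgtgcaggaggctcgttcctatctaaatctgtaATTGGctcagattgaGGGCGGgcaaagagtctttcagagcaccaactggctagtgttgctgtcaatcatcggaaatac
Ppm1a: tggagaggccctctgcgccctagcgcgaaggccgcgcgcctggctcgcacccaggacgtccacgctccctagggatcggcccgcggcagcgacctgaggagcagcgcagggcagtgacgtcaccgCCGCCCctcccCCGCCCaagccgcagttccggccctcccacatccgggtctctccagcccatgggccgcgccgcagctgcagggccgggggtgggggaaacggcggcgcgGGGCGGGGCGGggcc
The *Ppm1k* window held 2 matches to GGGCGG, 2 to CCAAT and 0 to TATAAA, with 14 CG dinucleotides. The *Ppm1a* window held 4 matches to GGGCGG, 0 to CCAAT and 0 to TATAAA, with 31 CG dinucleotides. Among 32817 promoter windows of this length, 32.7% held GGGCGG, 33.8% held CCAAT and 12.4% held TATAAA, and the median window had 6 CG dinucleotides. Of the 8 family members matched to the RefSeq table, 6 held GGGCGG in at least 1 window, 4 held CCAAT and 1 held TATAAA, so that these letters were not particular to *Ppm1k*. *Ppm1l* was not matched. The sequencing did not measure binding or chromatin at these windows.

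The libraries held between 20369746 and 32734485 counts. Mitochondrial transcripts took between 23.6% and 26.5% of the counts with vehicle and between 25.9% and 28.8% with Tributyrin. The ventricular cardiomyocyte markers were abundant in every library, with summed levels of 62165 to 64095 CPM (counts scaled to a common library size) with vehicle and 58928 to 64514 with Tributyrin, led by *Myh6*. The atrial markers summed to between 66.0 and 201 CPM with vehicle and between 33.6 and 68.9 CPM with Tributyrin, 0 of the 6 that were tested were higher with Tributyrin, 5 had an unadjusted p under 0.05 in edgeR (median log2 fold change -1.90), and *Bmp10* was near 0. The fibroblast markers summed to between 754 and 833 CPM with vehicle and between 679 and 824 with Tributyrin, 1 of 6 was higher with Tributyrin, and 2 had an unadjusted p under 0.05 in edgeR (median log2 fold change -0.31). Of the 11 ventricular cardiomyocyte markers, 6 were higher and 4 had an unadjusted p under 0.05 (median 0.042), as did 1 of the 5 smooth muscle and pericyte markers. The ranges of the groups overlapped for all 10 marker lists examined. Whether atrial tissue, cell mixture or the mitochondrial share had a part in the differences below was not tested. *Xist* had 0 to 6 counts and the Y-linked *Ddx3y* had 1571 to 2559 counts in each of the 6 libraries. All 6 libraries thus had the pattern of male mice, while the study as a whole used both sexes.

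Per length of annotated exon, *Ppm1k* had the highest level of the 9 genes in both groups. The vehicle mice averaged 22.6 ± 1.5 CPM per kilobase and the Tributyrin mice 27.6 ± 1.3 (SD, n = 3 each). *Ppm1b* came next with 17.2 ± 0.99 and 16.6 ± 1.2 CPM per kilobase (SD, n = 3, vehicle and then Tributyrin). *Ppm1a* followed with 13.5 ± 0.79 and 14.0 ± 0.22 CPM per kilobase. *Ppm1k*, *Ppm1b*, *Ppm1a* and *Ppm1g* did not overlap with their neighbours in this order in either group.

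*Ppm1g* had 10.1 ± 0.40 CPM per kilobase (SD, n = 3) with vehicle. *Ppm1f* (8.76 ± 0.54) and *Ppm1l* (8.28 ± 0.13) overlapped each other in both groups, as did *Ppm1d* (2.64 ± 0.36) and *Ppm1m* (2.49 ± 0.31). *Ppm1h* was lowest, at 0.797 ± 0.14 CPM per kilobase with vehicle and 0.708 ± 0.043 with Tributyrin. This scale uses the merged exons of all annotated transcripts, from 2710 bases for *Ppm1m* to 12829 for *Ppm1a*, so a gene of which mainly a short transcript is used comes out too low. The mitochondrial phosphatase therefore made up between 25.5% and 26.8% of the length-scaled sum of the 9 genes in the vehicle mice and between 29.6% and 31.1% in the Tributyrin mice, while the sum of the other 8 was between 61.2 and 65.0 CPM per kilobase with vehicle and between 62.3 and 64.9 with Tributyrin.

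**Figure D1:**
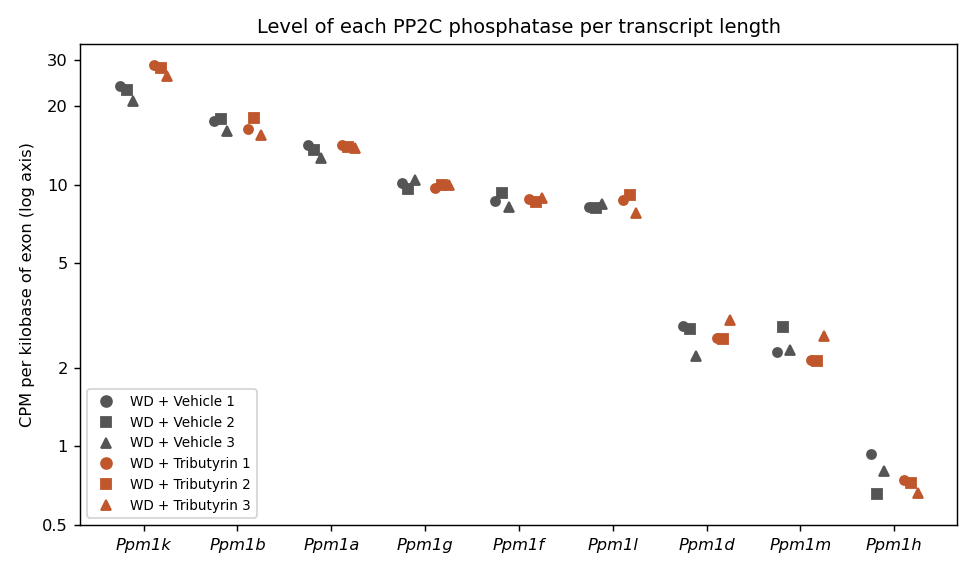
Level of each of the 9 PP2C phosphatases in CPM per kilobase of annotated exon on a log axis, with 1 point per library, grey for WD + Vehicle and orange for WD + Tributyrin. *Ppm1k* is highest in every library, and its orange points lie above its grey points.

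*Ppm1k* was higher with Tributyrin in every mouse. Its CPM was 143, 139 and 126 in the vehicle mice and 172, 169 and 158 in the Tributyrin mice. The lowest Tributyrin mouse lay above the highest vehicle mouse, and replicate 3 was the lowest of both groups. The mean was 22.3% higher with Tributyrin, and the log2 fold change was 0.29 (standard error 0.075), with a 95% interval of 0.12 to 0.46. In edgeR, with Benjamini-Hochberg adjustment for the 14133 genes tested, p was 0.00296 before adjustment and 0.999 after it. At an FDR of 10%, 0 genes were called, or 0% of those tested, so 0 of the 9 members passed. Without adjustment, p was under 0.05 for 1 of the 9 members, *Ppm1k*, and for 600 genes in all (4.25%) by edgeR or 605 by limma-voom. The spread between mice was 6.49% of the mean with vehicle and 4.69% with Tributyrin, above the counting error of at most 1.94%.

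Of all genes tested, 5.50% had a larger log2 fold change than *Ppm1k*. Among the 7957 genes with a mean of at least 10 CPM this was 0.804%. Since *Ppm1k* was singled out on these same mice, these shares describe its rank and do not test it. Groups stood apart for 1 of the 9 family members, *Ppm1k*, and for 8.94% of all genes, of which those higher with Tributyrin were 4.34% of genes. In bulk tissue, more cells that express a gene and more RNA per cell cannot be told apart.

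The closest relatives of each other in the family, *Ppm1a* and *Ppm1b*, had overlapping groups. *Ppm1a*, which acts on Smad proteins and stress kinases, had 182, 175 and 162 CPM with vehicle and 182, 178 and 177 CPM with Tributyrin. The highest vehicle mouse was level with the highest Tributyrin mouse. Its log2 fold change was 0.05 (standard error 0.070, 95% interval -0.10 to 0.20). *Ppm1b*, which acts on kinases of inflammatory signalling, had 92.5, 93.9 and 84.3 CPM with vehicle and 85.8, 94.1 and 81.5 CPM with Tributyrin. Here the lowest and the highest mouse both belonged to the Tributyrin group, and the log2 fold change was -0.05 (0.080, interval -0.23 to 0.13).

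*Ppm1l*, a phosphatase anchored in the endoplasmic reticulum, had 86.6, 85.7 and 88.3 CPM with vehicle and 91.8, 95.7 and 81.8 CPM with Tributyrin. The Tributyrin mice lay on both sides of the vehicle mice, and the log2 fold change was 0.05 (standard error 0.076, 95% interval -0.12 to 0.22). *Ppm1g*, a nuclear member linked to splicing, had 49.4, 47.0 and 50.9 CPM with vehicle and 47.3, 48.4 and 48.5 CPM with Tributyrin. All 3 Tributyrin mice lay within the range of the vehicle mice. The log2 fold change was -0.03 (0.069, interval -0.18 to 0.12).

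*Ppm1f*, which dephosphorylates CaM kinase II, had 42.8, 46.0 and 40.6 CPM with vehicle and 43.5, 42.5 and 43.7 CPM with Tributyrin. The Tributyrin mice again lay within the range of the vehicle mice, and the difference was near 0 (log2 fold change 0.0011, standard error 0.074, 95% interval -0.16 to 0.17). An antisense gene, *Gm49595*, shares 89 exon bases with *Ppm1f* and had at most 8 counts in a library, against at least 859 for *Ppm1f*.

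The 3 members with few reads were less precise. *Ppm1d*, a p53 target that acts back on p53, had 149 to 302 counts per library and 9.17, 8.90 and 7.05 CPM with vehicle against 8.22, 8.12 and 9.62 CPM with Tributyrin. The lowest mouse was a vehicle mouse and the highest a Tributyrin mouse, and the interval of its log2 fold change of 0.04, from -0.26 to 0.34, held the value of *Ppm1k*. *Ppm1h*, which acts on Rab proteins, had 9.56, 6.72 and 8.19 CPM with vehicle and 7.58, 7.39 and 6.75 CPM with Tributyrin, with a log2 fold change of -0.16 (95% interval -0.48 to 0.16). *Ppm1m*, a relative of *Ppm1h*, had 6.20, 7.72 and 6.34 CPM with vehicle and 5.77, 5.72 and 7.14 CPM with Tributyrin, with a log2 fold change of -0.13 (interval -0.45 to 0.19). In both genes the groups overlapped.

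Of the 8 members other than *Ppm1k*, 4 had a positive and 4 a negative log2 fold change, their median was -0.014 and their groups overlapped in 8 of 8 cases. The median over all genes tested was -0.0013, and groups stood apart for only 8.94% of all genes, so overlap was the usual case. For 7 of the 8 members the 95% interval ended below the estimate for *Ppm1k*. The interval of *Ppm1k* itself, 0.12 to 0.46, overlapped each of theirs. *Ppm1k* was singled out on these same mice, so this comparison is a description and not a test. With counts scaled by library size alone, *Ppm1a*, *Ppm1d*, *Ppm1f* and *Ppm1l* turned negative, so the signs of these small differences depend on the scaling, while *Ppm1k* was at 0.22.

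**Figure D2:**
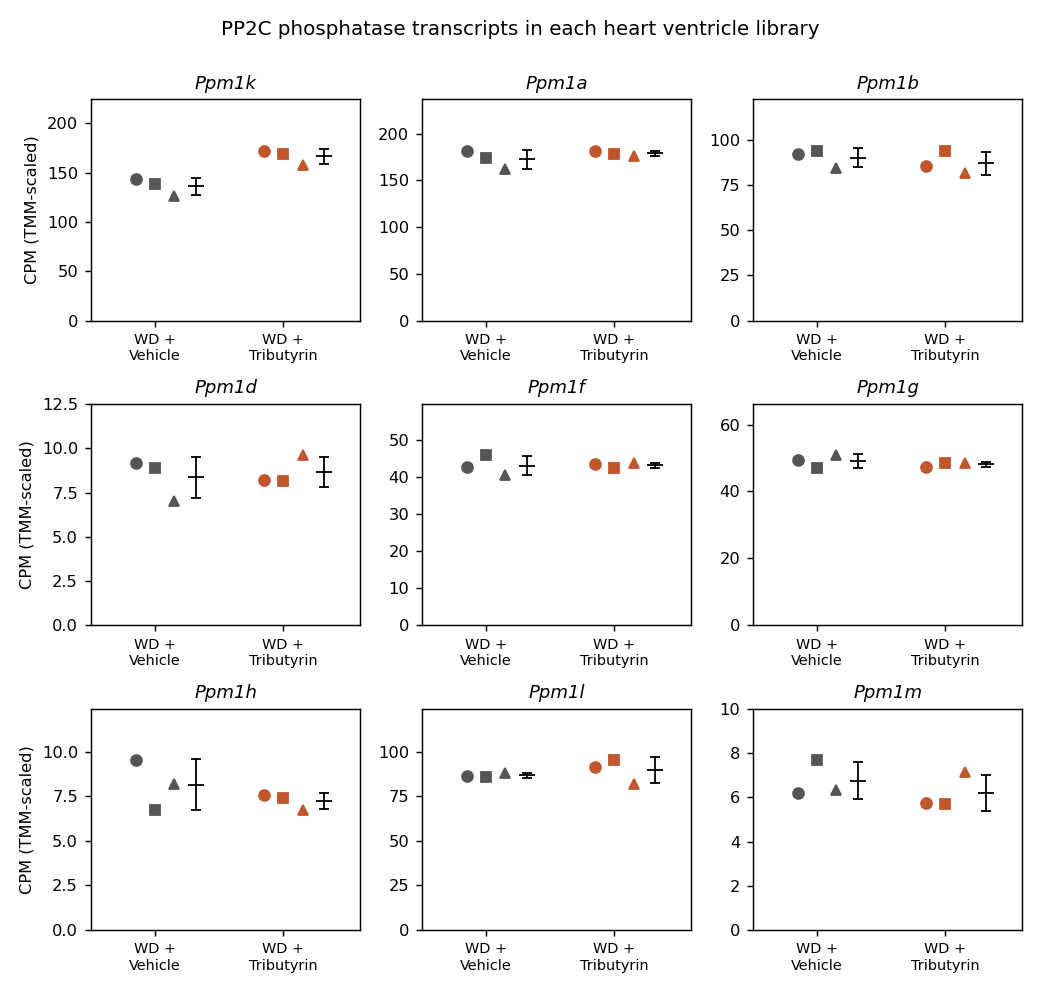
CPM of each of the 9 PP2C phosphatases in each library, with axes from 0, grey points for WD + Vehicle and orange points for WD + Tributyrin, and the mean with its SD (n = 3) in black beside each group. The groups lie apart for *Ppm1k* and overlap for the other 8 genes.

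*Ppm1k* was compared with each other member by the ratio of their levels within a library, which depends little on how libraries are scaled. *Ppm1k* had been singled out on these same mice for its rise, and every ratio to it carries that rise. The adjusted p-values of the ratios are therefore descriptions and not independent evidence that the difference was particular to *Ppm1k*. For each read of *Ppm1a* there were 0.787, 0.794 and 0.779 reads of *Ppm1k* in the vehicle mice and 0.946, 0.948 and 0.892 in the Tributyrin mice. The vehicle ratios differed little among themselves, and each Tributyrin ratio lay above all of them. The log2 ratio was 0.24 higher with Tributyrin (standard error 0.093, 95% interval 0.041 to 0.44), and the adjusted p was 0.0696 from limma with Benjamini-Hochberg adjustment over all 14132 other genes.

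For each read of *Ppm1b* there were 1.55, 1.48 and 1.497 reads of *Ppm1k* with vehicle and 2.01, 1.80 and 1.93 with Tributyrin. The log2 ratio was 0.34 higher (standard error 0.097, 95% interval 0.14 to 0.55, adjusted p = 0.0483 from limma), and the groups did not overlap. Against *Ppm1l* it was 0.25 higher (0.033 to 0.46, adjusted p = 0.0771), against *Ppm1f* 0.29 (0.064 to 0.51, adjusted p = 0.0617) and against *Ppm1g* 0.32 (0.090 to 0.55, adjusted p = 0.0545).

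For the members with few reads the intervals were wider. The log2 ratio was 0.45 higher with Tributyrin against *Ppm1h* (95% interval 0.12 to 0.78, adjusted p = 0.0572 from limma) and 0.41 against *Ppm1m* (0.051 to 0.77, adjusted p = 0.0787). Against *Ppm1d* it was 0.24 higher with an interval of -0.081 to 0.56 and an adjusted p of 0.1996, and without tributyrin replicate 3 it was 0.35 higher with an adjusted p of 0.0821 (0.0821 to 0.447 over 12 alternatives). There were 15.6, 15.6 and 17.9 reads of *Ppm1k* for each read of *Ppm1d* with vehicle and 20.96, 20.8 and 16.4 with Tributyrin, and 1 Tributyrin mouse, replicate 3, fell within the range of the vehicle mice.

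At an FDR of 10%, 7 of the 8 ratios were higher with Tributyrin, and the ratio was likewise higher for 44.9% of all genes tested, since every ratio carries the same 6 values of *Ppm1k*. The ratio groups did not overlap for 6 of 8 members and for 47.8% of all genes. In these 6 cases the two-sided exact permutation test gave p = 0.1, the smallest that 3 mice against 3 allow, and in the other two p = 0.2. The median difference in log2 ratio was 0.30 over the 8 members and 0.29 over all genes. The tests rested on single mice: 0 of the 8 ratios passed without vehicle replicate 2, without vehicle replicate 3 or without tributyrin replicate 1, and 3 passed without tributyrin replicate 2, where the share of all genes was 0.0985%, 0.0345%, 8.02% and 25.6%. All 8 ratios stayed higher with Tributyrin with each mouse left out.

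**Figure D3:**
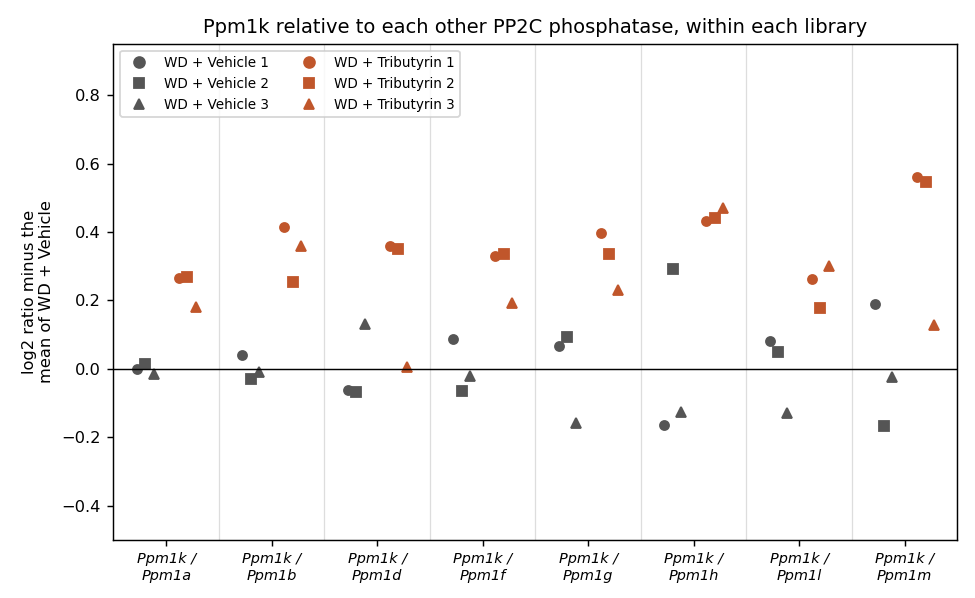
Log2 ratio of *Ppm1k* to each of the other 8 PP2C phosphatases within each library, shown as the difference from the mean of the WD + Vehicle mice (line at 0), with grey points for WD + Vehicle and orange points for WD + Tributyrin. The orange points lie above the grey points for 6 of 8 genes and overlap with them for *Ppm1d* and *Ppm1m*.

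A further 11 genes with a PP2C fold were examined, of which *Ppm1n* (at most 2 counts in a library) and *Pp2d1* (at most 4) were too low to test. Of the 9 tested, 4 were higher and 5 lower with Tributyrin, with a median log2 fold change of -0.019, and 0 passed an FDR of 10%. The gene that stood apart was *Ppm1e*, a phosphatase of PAK kinases, with 13.9, 13.0 and 14.1 CPM in the vehicle mice and 12.6, 10.1 and 9.88 CPM in the Tributyrin mice. Every Tributyrin mouse lay below every vehicle mouse, as for 4.61% of all genes. The log2 fold change of *Ppm1e* was -0.33 (standard error 0.12, 95% interval -0.59 to -0.066), with an unadjusted p of 0.0188 and an adjusted p of 0.999 from edgeR's test. The log2 ratio of *Ppm1k* to *Ppm1e* was 0.63 higher with Tributyrin (interval 0.34 to 0.92, adjusted p = 0.0483 from limma), the largest such difference among the PP2C-fold genes.

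For the other 3 mitochondrial genes with a PP2C fold the groups overlapped. *Pdp2*, a catalytic subunit of pyruvate dehydrogenase phosphatase, had 37.9, 33.5 and 35.5 CPM with vehicle and 42.4, 37.0 and 41.4 CPM with Tributyrin. One Tributyrin mouse, replicate 2, fell below the highest vehicle mouse. Its log2 fold change was 0.18 (standard error 0.084, 95% interval -0.0088 to 0.36), and its log2 ratio to *Ppm1k* was not separable, since *Ppm1k* over *Pdp2* was 0.12 higher with an interval of -0.12 to 0.36. *Pdp1*, the other catalytic subunit, was at 0.0024 (0.12), and *Pptc7*, a matrix phosphatase that restrains mitophagy, was at -0.035 (0.068) despite having more reads than *Ppm1k* in every library.

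Outside the mitochondria, *Ilkap*, a partner of integrin-linked kinase, was at 0.05 (standard error 0.089) on the log2 scale and *Ppm1j* at -0.019 (0.11). It was 0.014 (0.098) for *Tab1*, a PP2C-fold protein without phosphatase activity that activates the kinase TAK1. The Akt phosphatases *Phlpp1* and *Phlpp2* were at -0.095 (0.088) and -0.065 (0.12). Exons of *Rad9b* on the opposite strand overlap *Pptc7* by 1002 bases, and with at most 74 counts against at least 4433 for *Pptc7* the values of the 2 genes are of very different size.

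**Figure D4:**
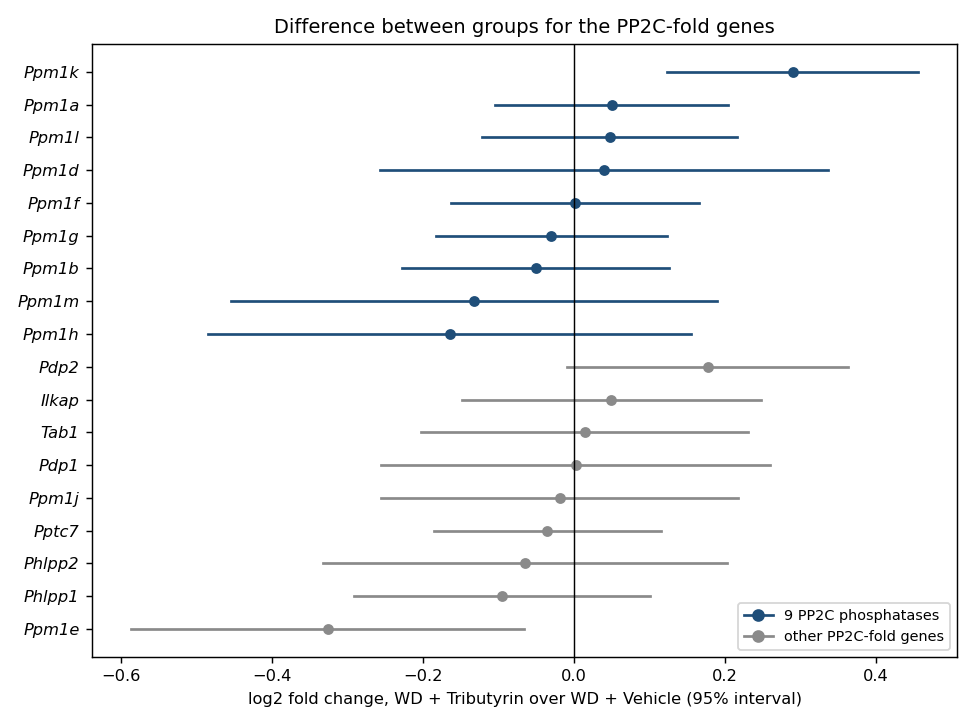
Log2 fold change (WD + Tributyrin over WD + Vehicle) with its 95% interval from edgeR for the 9 PP2C phosphatases in blue and the 9 other tested PP2C-fold genes in grey. The intervals of *Ppm1k* (0.12 to 0.46) and *Ppm1e* (-0.59 to -0.066) do not hold 0, and those of the other genes do.

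Transcripts of the substrate of PP2Cm and of the kinase that works against it were compared with the phosphatase. Of BCKDH's 4 subunit genes and *Bckdk*, all 5 were tested, 5 were above 0 and 0 passed an FDR of 10%. Log2 fold changes ran from 0.053 for *Dld* to 0.15 for *Dbt*, and the groups overlapped in each gene. Of the 14133 genes tested, 7012 were above 0, 0% passed that FDR and groups stood apart for 8.94%. Scaling by library size alone moved the median of all genes by -0.072, larger in size than the values of *Dld* and *Bckdha* (0.068). The signs of the 5 genes under that scaling were not examined. The log2 ratio of *Ppm1k* to the kinase *Bckdk* was 0.21 higher with Tributyrin (95% interval -0.0060 to 0.43, adjusted p = 0.113 from limma), and the groups overlapped. Against *Dld* it was 0.24 higher (0.023 to 0.45, adjusted p = 0.0844) and against *Bckdha* 0.22 (0.014 to 0.43, adjusted p = 0.0922), and the groups stood apart for both. Against *Bckdhb* it was 0.19 higher (-0.071 to 0.45, adjusted p = 0.211) and against *Dbt* 0.14 (-0.072 to 0.35, adjusted p = 0.2502). At an FDR of 10%, 2 of these 5 ratios passed, beside 44.9% of all genes.

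Other groups of phosphatases and kinases showed small median differences. The 7 phosphatase and kinase genes of pyruvate dehydrogenase had a median log2 fold change of 0.019, from -0.088 for *Pdpr* to 0.18 for *Pdp2*. The 5 mitochondrial phosphatases had a median of 0.0024, with *Ptpmt1* lowest at -0.090. Of the 13 catalytic subunits of the PPP family, which holds PP1, PP2A and calcineurin, 11 were tested, with a median of 0.041 and a range from -0.025 for *Ppp1cc* to 0.0996 for *Ppp1ca*. In these lists 0 genes passed an FDR of 10%, 0 had an unadjusted p under 0.05 in edgeR, and in 0 genes did the groups stand apart. Over all genes tested these shares were 0%, 4.25% and 8.94%, so counts of 0 in lists this short say little about these enzymes. The pyruvate dehydrogenase and mitochondrial lists share *Pdp1* and *Pdp2*.

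Next to *Ppm1k* on chromosome 6, 18 annotated genes lie within 250 kb, and 3 of them had enough counts to test. *Herc6*, which lies 45532 bases away, had a log2 fold change of 0.066 (standard error 0.28), *Lancl2* 0.041 (0.14) and *Pyurf* -0.077 (0.17), and their groups overlapped. Their standard errors were larger than that of *Ppm1k*, and all 3 of their 95% intervals held its estimate. *Gm45193*, the gene on the opposite strand that overlaps *Ppm1k*, had 0 counts.

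Across the 6 libraries *Ppm1a* was the member whose log2 CPM followed *Ppm1k* most closely, with a Pearson r of 0.75, against 0.43 for *Ppm1l* and -0.58 for *Ppm1g*. After the group means were removed, r was 0.91 for *Ppm1a* and 0.76 for *Ppm1b*. These are descriptions over 6 libraries that share their scaling, and *Ppm1a* ranked 318 of 7956 genes by r. Among the 5 highest were *Gstp1* (0.99), *Clcn4* (0.98), *Pex13* (0.98) and *Cpt2* (0.97). Log2 fold changes were 0.11 for *Gstp1* (a glutathione transferase), 0.085 for *Clcn4*, 0.12 for *Pex13* (peroxisome import) and 0.11 for *Cpt2* (the inner carnitine palmitoyltransferase), smaller than that of *Ppm1k*. In these 4 genes every Tributyrin mouse lay above every vehicle mouse, as for 4.34% of all genes, which the choice by likeness to *Ppm1k* largely fixes, and 0 of the 4 passed an FDR of 10%.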

How the data were processed

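The authors removed adapters (cutadapt 1.13 in the submitters' processing notes), poor reads and reads matching rRNA, aligned the 50-base single-end reads of a stranded mRNA library with STAR to mm10 and counted them per gene with htseq-count (HTSeq 0.6.1p1). They deposited whole-number counts without normalization, and every line named a gene. For the annotation release and the strand option of the counting, the sources used here give nothing. Names, positions and lengths came from GENCODE M21 (GRCm38), with 54165 identifiers matched. The labels number the mice and give no shared litter, batch or day.

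Groups were compared with edgeR 4.0.16 (R 4.3.3), a quasi-likelihood test with TMM scaling and filterByExpr (minimum count 10, total 15). CPM were computed on TMM-scaled library sizes. Ratios of *Ppm1k* to each gene were fitted with limma 3.58.1 on log2 CPM with a prior count of 2. P-values were adjusted over all genes tested, at an FDR of 10% (5% in the study's methods). DESeq2, the study's own method (1.14.1 in the submitters' processing notes), was run here as an alternative in version 1.42.0. The steps were tested on simulated data. Chi-square per degree of freedom was at least 7.40 for every pair of libraries, so no pair was a repeat sequencing of the same library. This check cannot tell whether a pair came from the same mouse.

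The members and lists were chosen with earlier results of these data known. The genes named were the members, 11 other PP2C-fold genes, the extremes of 4 context lists, tested neighbours within 250 kb and the 5 genes most correlated with *Ppm1k*, of which 1 is not reported here. The antisense genes were named for their overlap, and marker genes for the check of tissue. Protein sequences were not used here.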

Additional observations from a re-analysis of the deposited data

How the results depend on the processing

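At an FDR of 10% the reported fit called 0 genes. With no filter on low counts it called 167 (140 at 5%), DESeq2 called 11 with no prior on fold changes (5 at 5%) and 9 under such a prior (5 at 5%), and the fit with the replicate block called 2 (0 at 5%). Leaving out single mice gave 0 to 3 genes at either FDR. Of the 9 PP2C genes, 0 passed 10% in all 15 alternatives. In DESeq2, with which the study had called *Ppm1k*, its adjusted p here was 0.339 with no prior and 0.364 under a prior. *Ppm1k* stayed between 0.22 and 0.33 on the log2 scale, with adjusted p from 0.116 to 1.00. The ratios past 10% numbered 4 of 8 without the filter, where 18.9% of all genes passed, and 0 to 7 with a mouse left out. The cause of these shifts was not tested.

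Small log2 fold changes turned negative. With library size alone, which moved the median of all genes by -0.072, they were -0.021 for *Ppm1a*, -0.033 for *Ppm1d*, -0.072 for *Ppm1f* and -0.023 for *Ppm1l*. *Ppm1f* was at -0.00076 with DESeq2 size factors, -0.0030 with a mean CPM of at least 5, -0.00051 in DESeq2 and -0.00040 in DESeq2 under a prior. With a mouse left out, *Ppm1d* ran from -0.063 to 0.11, *Ppm1f* from -0.039 to 0.050 and *Ppm1l* from -0.00054 to 0.11.

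The replicate numbers were not taken as a pairing, since the labels give no shared litter, batch or day. Same-numbered samples deviated together with correlations of 0.21, 0.037 and 0.015. Differently numbered samples were not compared, so these values cannot settle whether the numbers mark pairs. With the replicate block *Ppm1k* was at 0.29, and 7 of 8 ratios passed beside 60.9% of all genes. The intervals of *Ppm1d*, *Ppm1h* and *Ppm1m*, the members with the fewest counts, were the widest of the 9, and 3 mice per group allow no exact permutation p under 0.1.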
